A study of Laccaria bicolor with 18 samples.

Results

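The 5 gene models described here are annotated as glycoside hydrolases of *Laccaria bicolor* S238N, from families that include enzymes acting on cell wall glucans. Gene models 245697, 186533 and 379212 belong to family GH16, and 190947 and 292256 belong to family GH5. They are 5 of 23130 gene models and were followed across all 18 libraries. Over these libraries the 3 GH16 gene models had the highest mean levels of the 18 GH16 gene models annotated in the tables at hand. The lowest of the 3, 379212, averaged 207 CPM (read counts normalised to the size of each library, with the TMM factors that make libraries comparable), and the next, 389714, averaged 148 CPM. Both GH5 gene models belong to a cluster that the study formed on these same libraries from the pattern over stage and tissue. Their levels, differences and calls are therefore given as a description, not as evidence from a test. The GH16 gene models were also chosen with earlier results of these data known, which their p values do not take into account.

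Basidiocarps of the ectomycorrhizal fungus were collected in a nursery under inoculated Douglas fir seedlings and split into cap and stipe. The groups were early cap, medium cap, late cap, early stipe, medium stipe and late stipe, each with 3 replicate libraries of strain S238N. No treatment or genetic change is named in the labels. The labels do not state whether the replicates are separate mushrooms. The paper counts fewer biological replicates for this experiment than there are libraries. The stages are named but not dated in the labels, and it is not stated whether a cap and a stipe of the same number came from the same mushroom. The question of these comparisons is how transcript levels differ between stages of basidiocarp development and between cap and stipe. Each library held between 38976106 and 90888294 mapped reads, with a median of 54676654.5. Medium cap 3, early stipe 3 and medium stipe 3 each stood apart from the other replicates of their group, whereas medium stipes 1 and 2 (a coefficient of variation of 4.16% between them beyond counting noise) and late caps 2 and 3 (4.05%) were nearly alike. For the other replicate pairs this coefficient lay between 9.30% and 39.0%. Whether the nearly alike libraries are independent samples is not stated. No defining markers of cap or stipe were given in the sources used here, so the tissue labels were not checked against markers.

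The wall of a basidiomycete hypha is built of chitin and beta-glucans, which are synthesised at the plasma membrane and then cut, elongated and cross-linked by enzymes in the wall itself. GH16 is a large family of glucan hydrolases and transglycosylases. Part of the fungal GH16 proteins carry the label of SKN1, which together with KRE6 is needed for the synthesis of beta-1,6-glucan in *Saccharomyces cerevisiae*. GH5 is a family of many subfamilies, of which GH5_9 holds the exo-beta-1,3-glucanases such as EXG1 of *S. cerevisiae*. In mushrooms, the stipe elongates and the cap expands late in development, and remodelling of wall glucans accompanies both as well as the autolysis of old tissue.

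The GH16 gene model 245697, which carries the SKN1 label, was the one with the clearest difference between late stipes and all other tissues. Its level was 510, 683 and 556 CPM in early caps, 518, 682 and 747 CPM in medium caps, and 366, 386 and 385 CPM in late caps. In stipes it was 696, 573 and 384 CPM at the early stage, 546, 557 and 167 CPM at the medium stage, and 105, 91.9 and 104 CPM at the late stage. The 3 late stipes lay below every other library, and medium stipe 3 was the next lowest. The highest group mean, that of medium caps, was 6.47-fold that of late stipes. In the order of the 6 group means, neighbouring groups overlapped except for late caps and late stipes.

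In stipes, 245697 fell to 100.3 ± 7.22 CPM at the late stage, against 551 ± 157 CPM at the early stage (SD, n = 3 each). The log2 fold change was -2.46 (SE 0.354), with an adjusted p of 6.37e-05 by the quasi-likelihood test of edgeR, adjusted after Benjamini and Hochberg over all 16485 gene models tested. Here and below a gene model is said to have risen or fallen when the adjusted p is under 0.05 and the log2 fold change is larger than 1 in size. It was the only one of the 3 GH16 gene models called in this comparison, in which 19.3% of all gene models tested were called. Late stipes were also lower than medium stipes, which had 423 ± 222 CPM, by a log2 fold change of -2.08 (SE 0.349, edgeR adjusted p = 3.41e-04). In that comparison 15.6% of all gene models were called. Without medium stipe 3, the log2 fold change was -2.46.

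Caps did not show a fall of this size. Late caps held 379 ± 11.4 CPM of 245697, against 583 ± 89.4 CPM in early caps (SD, n = 3 each). The libraries did not overlap, but the log2 fold change of -0.62 (SE 0.337) had an edgeR adjusted p of 0.163. None of the 3 GH16 gene models was called by edgeR in this comparison, nor by DESeq2, and none reached an unadjusted p of 0.05, against 15.4% of all gene models called. Against medium caps at 649 ± 118 CPM, the log2 fold change of late caps was -0.78 (SE 0.338, edgeR adjusted p = 0.0805). Here, too, edgeR and DESeq2 called 0 of the 3 GH16 gene models, 1 of which, 245697, had an unadjusted p under 0.05, with 15% of all gene models called. The late against early log2 fold change of 245697 was -0.62 in caps and -2.46 in stipes, a smaller fall in caps. The difference, caps minus stipes, was 1.84 (SE 0.479), with an edgeR adjusted p of 0.0128. Of all gene models tested, 14.5% were called for it, and of the GH16 gene models described here only 245697.

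Late caps exceeded late stipes in 245697 by 3.78-fold. Late caps averaged 379 ± 11.4 CPM and late stipes 100.3 ± 7.22 CPM, with a log2 fold change of 1.92 (SE 0.348, edgeR adjusted p = 3.18e-04) and no overlap of libraries. In this comparison 24.3% of all gene models were called. At the earlier stages the tissues overlapped. The log2 fold change of medium caps against medium stipes was 0.62 (95% interval -0.10 to 1.33), and that of early caps against early stipes was 0.08 (95% interval -0.63 to 0.79). A read could map to as many as 10 places, so that gene models of near-identical sequence may share reads, which was not tested. In bulk tissue, fewer cells of a type that expresses a gene and less RNA per cell cannot be told apart.

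**Figure D1:**
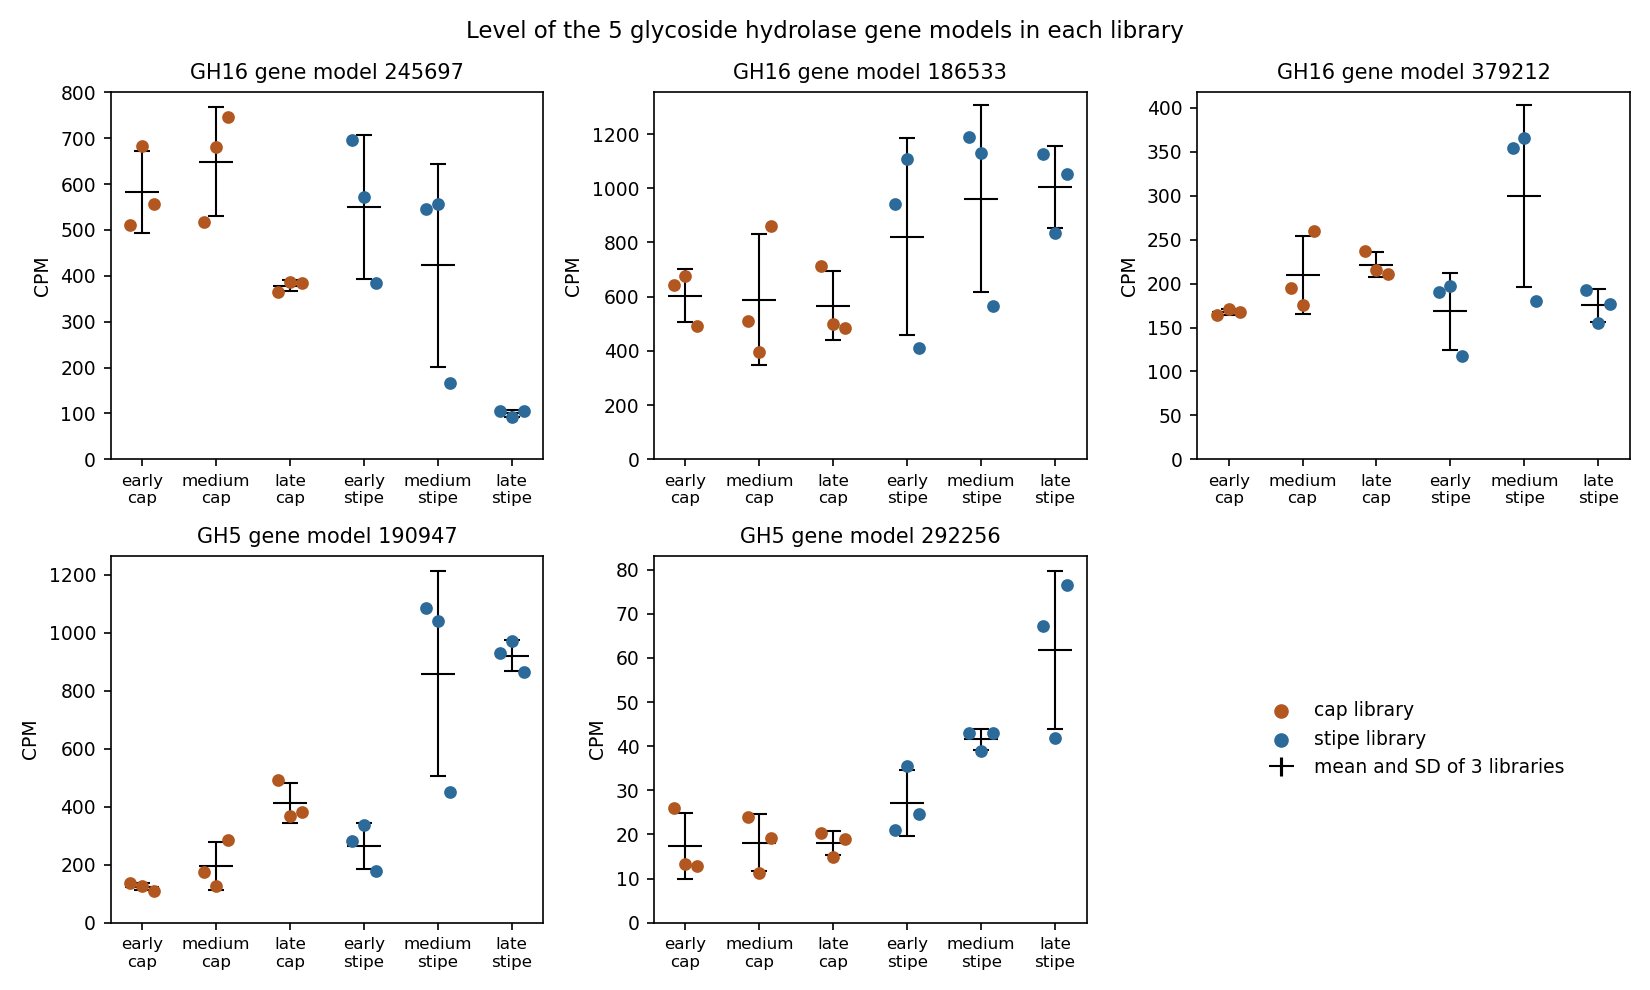
Level of each of the 5 gene models in CPM (y axis from 0) in the 18 libraries, by tissue and stage (x axis). Each point is a library and the black bars are the mean and SD of 3 libraries. For 245697 the 3 late stipes lie between 91.9 and 105 CPM, below all other libraries, whereas 190947 and 292256 have their highest means in late stipes.

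The GH16 gene model 186533 was on average the most abundant of the 5 and had the smallest fold difference between its highest and lowest group means. It has no SKN1 label and is annotated only as a hydrolase of O-glycosyl compounds. Its level was 641, 676 and 493 CPM in early caps, 509, 396 and 860 CPM in medium caps, and 713, 500 and 486 CPM in late caps. The stipe libraries held 942, 1109 and 412 CPM at the early stage, 1190, 1131 and 564 CPM at the medium stage, and 1126, 834 and 1051 CPM at the late stage. All 3 stipe means lay above all 3 cap means, but every pair of groups that were neighbours in this order overlapped. The highest group mean was 1.77-fold the lowest. The low stipe libraries were early stipe 3 and medium stipe 3, which stood apart from their groups in the whole data as well, and the high medium cap was medium cap 3, likewise. The part of these libraries in the spread of 186533 was not tested.

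No comparison passed both bounds for 186533. Late caps had 566 ± 127 CPM, against 1004 ± 152 CPM in late stipes, without overlap of the libraries (SD, n = 3 each). This log2 fold change was -0.83 (SE 0.373, 95% interval -1.61 to -0.04), with an edgeR adjusted p of 0.0766. Medium caps against medium stipes gave -0.71 (SE 0.372), with an edgeR adjusted p of 0.159, which became -1.12 with an adjusted p of 0.0344 without medium cap 3. EdgeR and DESeq2 called 0 of the 3 GH16 gene models in medium caps against medium stipes, and none had an unadjusted p under 0.05, whereas 11.5% of all gene models were called. Between stages, the log2 fold changes of 186533 lay between -0.09 and 0.29. The 95% interval of late against early stipes was -0.50 to 1.07 and that of late against early caps -0.88 to 0.69. A 2-fold change in either direction was thus outside the interval in caps. In stipes a 2-fold fall was outside it and a 2-fold rise was inside.

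The GH16 gene model 379212 was the lowest of the 3 GH16 gene models. Only its family was annotated at hand, so whether it carries the SKN1 label is not known. Its level was 164, 171 and 168 CPM in early caps, 195, 175 and 260 CPM in medium caps, and 237, 216 and 211 CPM in late caps. In stipes the level was 190, 197 and 118 CPM at the early stage, 354, 366 and 181 CPM at the medium stage, and 193, 155 and 177 CPM at the late stage. Its highest libraries were medium stipes 1 and 2, the nearly alike pair, while medium stipe 3 was within the range of the late stipes. Neighbours in the order of its 6 group means all overlapped, and the highest mean was 1.79-fold the lowest.

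Late stipes had 175 ± 19.0 CPM of 379212, against 300.2 ± 104 CPM in medium stipes (SD, n = 3 each). The log2 fold change of -0.78 (SE 0.250) had an edgeR adjusted p of 0.0230 but did not reach the bound of 1. Without medium stipe 3 it was -1.04, with an adjusted p of 0.00136. Medium stipes against early stipes, which had 168 ± 44.1 CPM, gave a log2 fold change of 0.83 (SE 0.250) with an edgeR adjusted p of 0.0634. Without medium stipe 3 this became 1.10, with an adjusted p of 0.00419. EdgeR and DESeq2 called 0 of the 3 GH16 gene models in medium against early stipes, 1 had an unadjusted p under 0.05, and 2.48% of all gene models were called. In caps, all 3 late libraries and all 3 medium libraries lay above all 3 early ones, by log2 fold changes of 0.40 (SE 0.249) and 0.33 (SE 0.248), with edgeR adjusted p values of 0.221 and 0.470. In medium against early caps and in early caps against early stipes, 0 of the 3 GH16 gene models were called by edgeR or DESeq2 and 0 had an unadjusted p under 0.05. The shares of all gene models called were 2.03% and 5.16%.

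The ratio of the 2 most abundant GH16 gene models differed between groups. On the deposited RPKM scale, which takes transcript length into account, the ratio of 186533 to 245697 was 0.967 ± 0.178 in early caps, 0.838 ± 0.272 in medium caps and 1.39 ± 0.360 in late caps (SD, n = 3 each). For stipes the ratio was 1.35 ± 0.409 at the early, 2.34 ± 0.681 at the medium and 9.23 ± 0.787 at the late stage. The 3 late stipe libraries, between 8.40 and 9.96, did not overlap any other group.

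**Figure D2:**
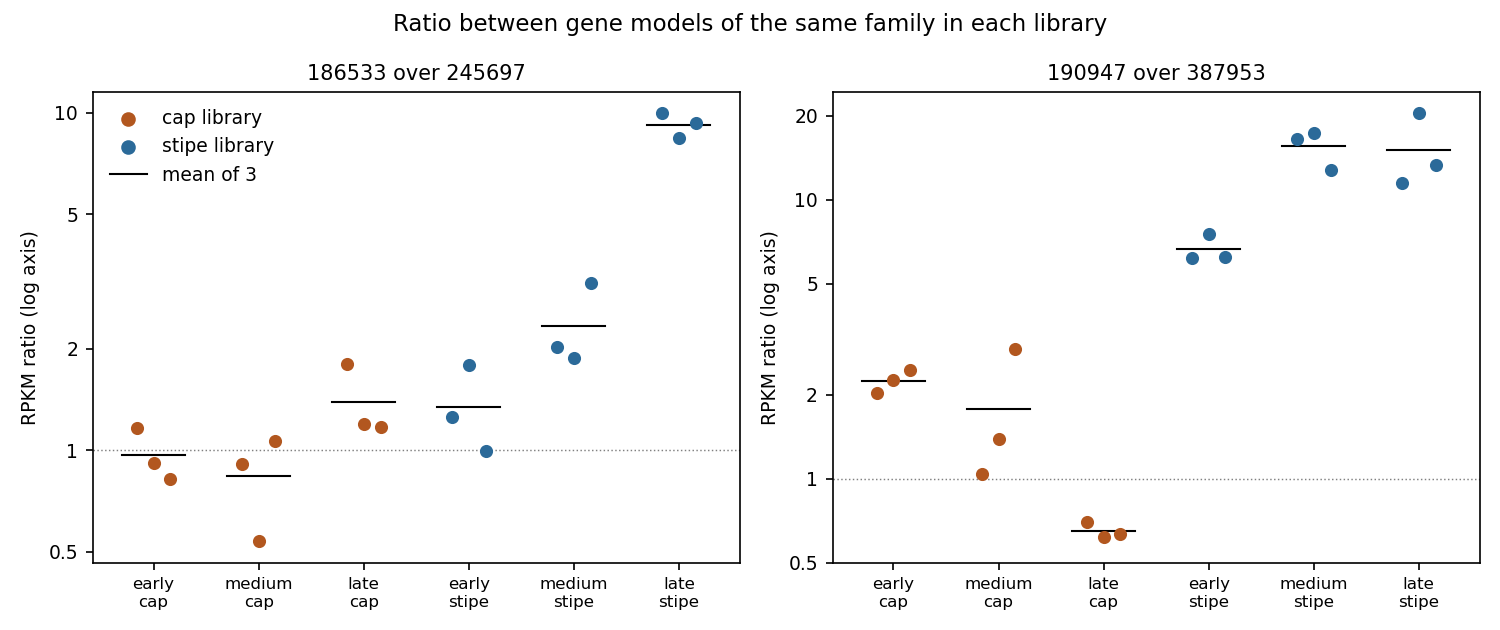
Ratio of RPKM values in each library (y axis, log scale) for 186533 over 245697, both GH16, and for 190947 over 387953, both GH5_9, by tissue and stage (x axis). Points are libraries and black lines are means of 3. The first ratio is highest in late stipes, with a mean of 9.23, and the second is below 1 only in late caps, with a mean of 0.651.

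The GH5 gene model 190947 is assigned to subfamily GH5_9 and annotated as a glucan 1,3-beta-glucosidase, an enzyme that releases glucose from the ends of beta-1,3-glucan chains. Its level was 135, 127 and 111 CPM in early caps, 174, 128 and 287 CPM in medium caps, and 493, 368 and 382 CPM in late caps. Stipes held 282, 336 and 179 CPM at the early stage, 1084, 1040 and 452 CPM at the medium stage, and 930, 971 and 865 CPM at the late stage. All late caps lay above all earlier caps, and all medium and late stipes lay above all early stipes. At each stage the caps lay below the stipes without overlap. Late stipes, the highest group, had 7.41-fold the mean of early caps, the lowest. Among neighbours in the order of group means, only late caps and early stipes did not overlap.

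As a description of these libraries, the log2 fold change of 190947 was 1.73 (SE 0.339) in late against early caps and 1.79 (SE 0.339) in late against early stipes. The difference between both, -0.06 (SE 0.466), was small against its error, with a 95% interval of -1.05 to 0.93. The steps were not the same. In stipes most of the difference was already present at the medium stage, with 1.69 (SE 0.338) in medium against early stipes and 0.10 (SE 0.329) in late against medium stipes. In caps, medium against early gave 0.66 (SE 0.331) and late against medium 1.08 (SE 0.333). Caps against stipes gave -1.09 (SE 0.333) at the early, -2.13 (SE 0.343) at the medium and -1.15 (SE 0.334) at the late stage. Medium stipe 3, with 452 CPM, was far below the other medium stipes, and without it the log2 fold change of late against medium stipes was -0.21.

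The other GH5 gene model, 292256, assigned to subfamily GH5_30 and annotated only as a hydrolase of O-glycosyl compounds, was much less abundant. By mean RPKM over all libraries it was the gene model of rank 7416, whereas 190947 had rank 571, 186533 rank 245, 245697 rank 412 and 379212 rank 1266. Its level was 25.9, 13.4 and 12.8 CPM in early caps, 24.0, 11.4 and 19.2 CPM in medium caps, and 20.3, 15 and 18.9 CPM in late caps. In stipes it was 21.1, 35.6 and 24.7 CPM at the early stage, 42.9, 38.8 and 43.0 CPM at the medium stage, and 67.2, 41.9 and 76.4 CPM at the late stage. Cap libraries of the 3 stages overlapped throughout, while all medium and late stipes lay above all cap libraries. The late stipes held 3.56-fold the mean of the early caps, the lowest group.

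For 292256, late against early stipes gave a log2 fold change of 1.19 (SE 0.309), and late against early caps 0.06 (SE 0.307). The difference of the late against early changes, caps minus stipes, was -1.13 (SE 0.434). Caps against stipes gave -0.64 (SE 0.308) at the early, -1.19 (SE 0.310) at the medium and -1.77 (SE 0.315) at the late stage. Without medium cap 2, the value at the medium stage was -0.95.

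By the same bounds as for GH16, both GH5 gene models passed as lower in caps than in stipes at the late stage (24.3% of all gene models called, in either direction), both as lower in medium caps than in medium stipes (11.5%) and both as higher in late than in early stipes (19.3%). Only 190947 passed in late against early caps (15.4%), late against medium caps (15%), medium against early stipes (2.48%) and early caps against early stipes (5.16%). Neither passed in medium against early caps (2.03%) or late against medium stipes (15.6%), nor for the difference of the late against early changes between tissues (14.5%). As the cluster that holds both gene models was formed on these libraries, these counts say nothing beyond that choice. The same holds for whether a call was kept in other fits. The early stage comparison of 190947 lay close to the bound on the adjusted p and was kept in 4 of the 18 fits that each left out 1 library. Its late against medium cap call was lost without medium cap 1, medium cap 2 or late cap 1, and the medium stage call of 292256 without medium cap 2.

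**Figure D3:**
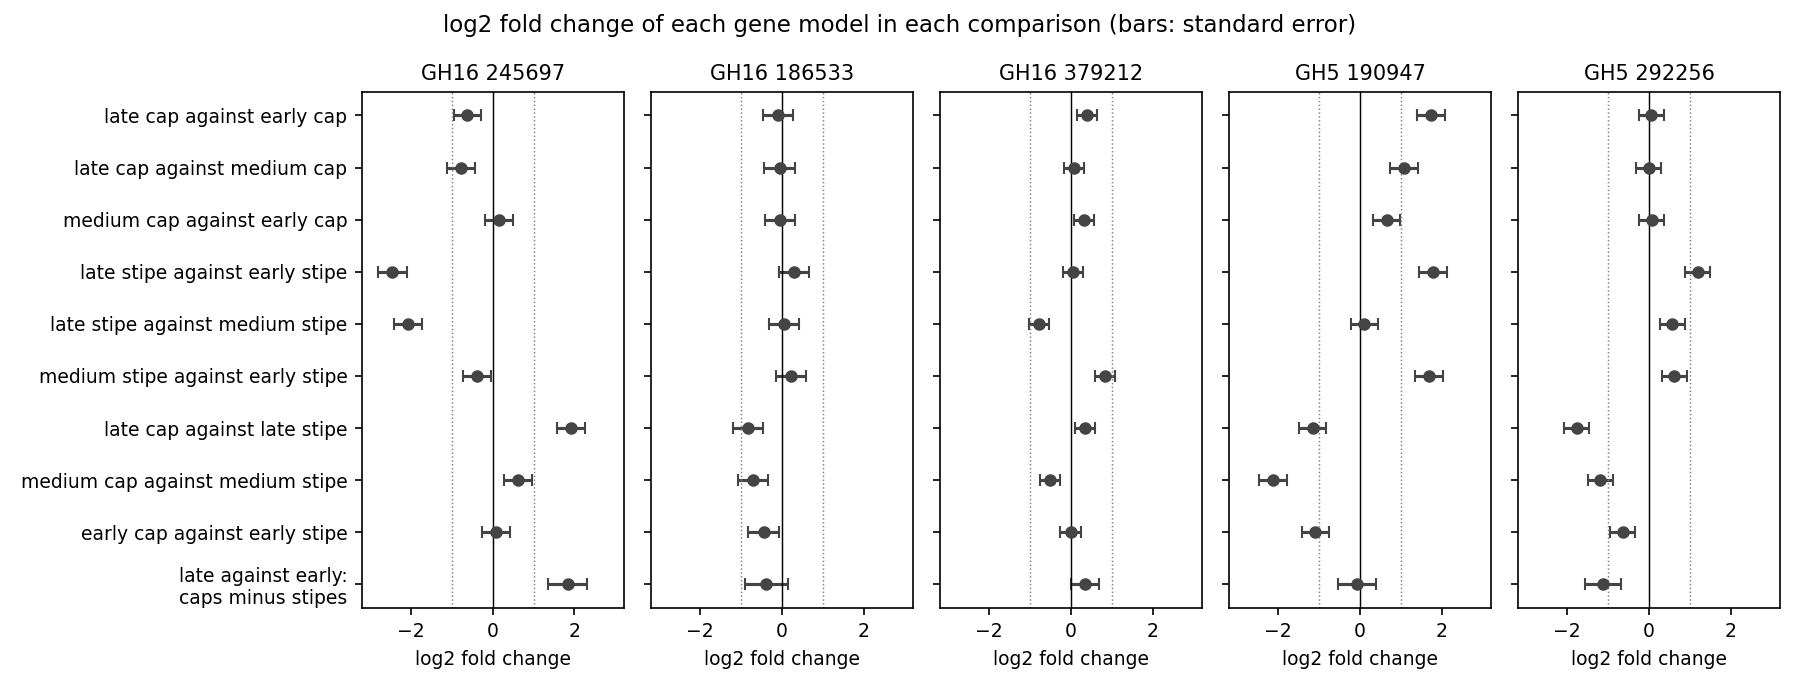
log2 fold change (x axis) of each gene model in the 9 comparisons and in the difference of the late against early change between caps and stipes (rows). Points are estimates, bars are standard errors and dotted lines mark a log2 fold change of 1 in size. In late caps against late stipes, 245697 lies at 1.92, and 190947 and 292256 lie at -1.15 and -1.77.

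Together the 5 gene models took between 0.155% and 0.251% of all mapped reads in the group means. Over the 18 libraries, which share stage and tissue groups, Pearson's r of log2(CPM + 1) was 0.78 between 190947 and 292256, 0.71 between 186533 and 190947 and 0.68 between 186533 and 292256. It was -0.72 between 245697 and 292256 and -0.60 between 245697 and 190947. These values describe the 18 libraries, 3 for each of the 6 groups, and are not tested. Among gene models with a mean of at least 5 CPM, the pattern most like that of 245697 was found for 687075 (r = 0.99), 634924 (0.97) and 639995 (0.97), none of which has a functional annotation at hand. For 190947 the 3 most alike were 460441 (r = 0.96) and 457469 (0.95), both assigned to AA5_1, a subfamily of copper radical oxidases annotated as glyoxal oxidases, and 614278 (0.95), annotated as a GATA-type zinc finger protein. For 186533 they were 489058 (r = 0.92), 297312 (0.91) and 496883 (0.91), for 379212 they were 315282 (0.90), 295469 (0.88, assigned to GH79) and 636262 (0.86), and for 292256 they were 693846 (0.93), 636367 (0.92) and 697540 (0.92).

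Of the 15 other GH16 gene models annotated in the tables at hand, 4 rose and 4 fell in late against early stipes. Of all 16485 gene models tested, 7.63% rose and 11.7% fell. The median log2 fold change of the 15 was -0.46, beside -0.01 over all gene models. In late against early caps, 4 rose and 3 fell, beside 9.27% and 6.12% of all gene models, and in late caps against late stipes 4 were higher and 2 lower, beside 14.8% and 9.55%. The 2 lower ones were 309729 and 255995, and the call of 255995 was lost without medium cap 2 or late cap 2, which leaves a count of 1. The lists were drawn from gene models that the paper reports as regulated, in part in these libraries, or as matches of developmentally regulated *Coprinopsis cinerea* genes. Their called shares are therefore not an even match for those of all gene models. The same holds for the GH5 and other glucan gene models below.

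The SKN1 label could be read for only part of the GH16 gene models. Others may carry it unseen, such as 174636, which fell in late against early stipes. The 4 other GH16 gene models in which it was read (239682, 247183, 483631 and 692234) did not share the late stipe fall of 245697. Of these, 3 rose and 0 fell in late against early stipes, and likewise 3 rose and 0 fell in late against early caps. In both comparisons the log2 fold change of 239682, 0.92 in stipes and 0.78 in caps, stayed under the bound. The rise of 247183 in stipes was lost without early stipe 2 or late stipe 2, and without the same libraries 239682 passed. In 692234, late stipes had 59.2 ± 9.10 CPM, against 12.2 ± 2.03 CPM in early stipes, a log2 fold change of 2.28 (SE 0.233). In 483631, late stipes had 81.2 ± 2.53 CPM, against 33.7 ± 7.21 CPM in early stipes, a log2 fold change of 1.27 (SE 0.209). All 4 stand in clusters that the study formed on these libraries, in a table held here only in part, so their direction and these counts are not independent evidence. The same holds for 305507, the remaining GH16 gene model that rose in late against early stipes and in late against early caps.

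Among the other GH16 gene models that fell in late against early stipes, as 245697 did, 174636 had 7.71 ± 1.02 CPM in late stipes, against 175 ± 58.2 CPM in early stipes (log2 fold change -4.50, SE 0.451). The next GH16 gene model by level, 389714, had 68.8 ± 17.6 CPM in late stipes, against 184 ± 70.9 CPM in early stipes (log2 fold change -1.42, SE 0.245). In late caps both were also higher than in late stipes, with log2 fold changes of 2.83 (SE 0.420) and 1.52 (SE 0.246). In caps, 309729 fell to 9.11 ± 0.296 CPM at the late stage, against 56.0 ± 7.67 CPM at the early stage (log2 fold change -2.62, SE 0.261). The fall of 174636 in late against early caps (log2 fold change -1.23, SE 0.395) was lost without early cap 2 or any of the 3 late caps, at log2 fold changes between -1.25 and -1.07.

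Only 1 of the 4 other GH5 gene models is assigned to GH5_9, and its pattern was unlike that of 190947. This gene model, 387953, had 73.1, 61.5 and 49.5 CPM in early caps, 183, 101 and 107 CPM in medium caps, and 772, 648 and 657 CPM in late caps. The stipe libraries held 49.9, 48.6 and 31.5 CPM at the early stage, 71.6, 65.6 and 38.9 CPM at the medium stage, and 88.6, 52.0 and 70.9 CPM at the late stage. It rose in late against early caps by a log2 fold change of 3.50 (SE 0.312, edgeR adjusted p = 9.91e-07) and late caps exceeded late stipes by 3.30 on the same scale (SE 0.309), while late against early stipes gave 0.70 (SE 0.285, edgeR adjusted p = 0.0572). The difference between the late against early changes of caps and stipes was 2.79 (SE 0.408).

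The RPKM ratio of 190947 to 387953 was 2.24 ± 0.213 in early caps, 1.78 ± 1.0 in medium caps and 0.651 ± 0.0408 in late caps (SD, n = 3 each). In stipes it was 6.66 ± 0.784 at the early, 15.5 ± 2.47 at the medium and 15.1 ± 4.72 at the late stage. Late caps were thus the only group in which 387953 was the more abundant of both GH5_9 gene models.

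Of the 4 other GH5 gene models, 1 rose and 0 fell in late against early caps, where 9.27% of all gene models tested rose and 6.12% fell. In late against early stipes 0 rose and 1 fell, beside 7.63% and 11.7% of all gene models. In late caps against late stipes 1 was higher and 1 lower, beside 14.8% and 9.55%. DESeq2 gave the same counts, and an unadjusted p under 0.05 in edgeR was reached by 2 falls in late against early caps and 1 rise in late against early stipes. The GH5_12 gene model 189357 fell to 40.8 ± 5.38 CPM in late stipes, against 162 ± 55 CPM in early stipes (log2 fold change -1.99, SE 0.274). The GH5_50 gene model 152096 was lower in caps at the late stage, with 32.3 ± 1.15 CPM in late caps and 69.0 ± 6.50 CPM in late stipes (log2 fold change -1.10, SE 0.273).

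A further 14 gene models were listed from families of beta-glucan cleavage, remodelling and synthesis. Of these, 310686 and 317672 (GH30_3) are annotated as glucosylceramidases, and 178737 and 189477 (GH3) as beta-glucosidases. Among the 14, 4 rose and 0 fell in late against early caps, beside 9.27% and 6.12% of all gene models. In late against early stipes 1 rose and 5 fell, beside 7.63% and 11.7%, and without late stipe 2, 3 fell. In late caps against late stipes 6 were higher, beside 14.8% of all gene models. The share lower was 9.55% over all gene models. None was lower by edgeR or DESeq2, where 1 had a lower level at an unadjusted p under 0.05 in edgeR. Without late cap 1 or without late stipe 2, 1 was lower, namely the GH17 gene model 382749. The median log2 fold change of the 14 was 0.59 in caps, beside -0.05 over all gene models, and -0.51 in stipes, beside -0.01. At least 5 of the 14 stand in a cluster that the study formed on these libraries, so their direction is not independent evidence.

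The Kre9/Knh1 family gene model 647030, whose *S. cerevisiae* relatives are needed for beta-1,6-glucan, averaged 878 ± 37.7 CPM in late caps. Early caps held 18 ± 5.49 CPM of it, and late stipes held 48.8 ± 17.1 CPM. The log2 fold changes of late caps were 5.61 (SE 0.742) against early caps and 4.17 (SE 0.692) against late stipes. The second Kre9/Knh1 gene model, 655987, had 498 ± 56.3 CPM in late caps, against 154 ± 5.86 CPM in late stipes (log2 fold change 1.69, SE 0.265). Of the GH17 gene models, a family of beta-1,3-glucanases and transglycosylases, 320159 fell to 7.70 ± 2.18 CPM in late stipes, against 149 ± 56.0 CPM in early stipes (log2 fold change -4.28, SE 0.602), whereas 382749 rose to 464 ± 130.0 CPM in late stipes, against 173 ± 7.46 CPM in early stipes (log2 fold change 1.42, SE 0.219). Of the GH128 gene models, a family of beta-1,3-glucanases, 175190 fell to 1188 ± 216 CPM in late stipes, against 3048 ± 913 CPM in early stipes (log2 fold change -1.36, SE 0.397), a call lost without late stipe 2. The GH128 gene model 392537 rose to 329 ± 27.1 CPM in late caps, against 155 ± 14.7 CPM in early caps (log2 fold change 1.09, SE 0.254). Both 382749 and 392537 were picked by the study in clusters formed on these libraries. The GT48 gene model 317105, the beta-1,3-glucan synthase, had 809 CPM in late caps, against 537 CPM in early caps. Its late stipes had 995 CPM, against 721 CPM in early stipes, and the log2 fold changes of 0.59 (SE 0.434) in caps and 0.47 (SE 0.433) in stipes did not pass the test.

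**Figure D4:**
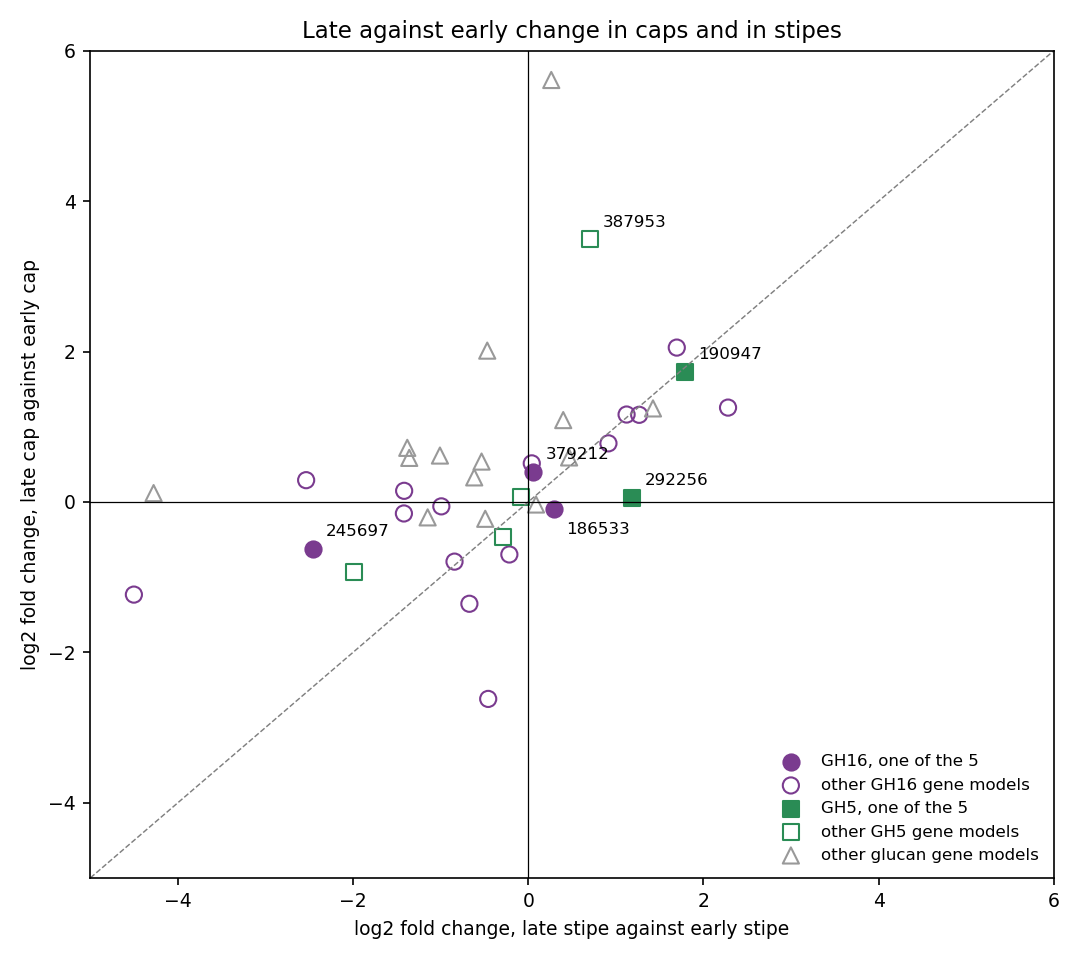
log2 fold change of late against early stipes (x axis) and of late against early caps (y axis) for the 38 gene models of the GH16, GH5 and other glucan lists, with filled symbols for the 5 gene models described in full. The dashed line marks equal change in both tissues. Gene model 245697 lies at -2.46 in stipes and -0.62 in caps, and 190947 lies close to the dashed line, whereas 387953 lies far above it.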

How the data were processed

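Total RNA of caps and stipes was sequenced from stranded mRNA libraries on an Illumina HiSeq2000 (2 x 100 bp). For the read counts, the authors trimmed reads (quality score 0.05, adapters, minimum length 15), aligned them with CLC Genomics Workbench v8 to the *L. bicolor* v2 reference transcripts with up to 10 hits per read, and deposited an unnormalized count for each gene model. Unique and total mapped reads are both named in the methods, and which of them the counts are is not stated, nor is the use of strand. RPKM values, which the authors derived from counts and transcript length, were deposited as well and served here to compare levels between genes and, as an alternative, to order the groups.

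Tests were made on the deposited counts with edgeR 4.0.16 (R 4.3.3, TMM scaling, filterByExpr, quasi-likelihood F-test, Benjamini-Hochberg over the 16485 gene models kept), with all 18 libraries in 1 fit. All 5 gene models passed this filter. A call required an adjusted p under 0.05 and a log2 fold change above 1 in size. The standard error was taken as the log2 fold change divided by the square root of F. The tool was tested on simulated data, with 200 changes of 2 on the log2 scale set in late caps. EdgeR recovered 191 of them in late against early caps and 189 in late caps against late stipes. For the difference of the late against early changes it recovered 161. Alternatives were DESeq2 1.42.0, RLE scaling, other filters on low counts, a replicate block, fits of the compared groups alone, summing of nearly alike libraries, no minimum fold change, and leaving out each library. The tests set each difference against the spread between the 3 replicate libraries within groups, estimated from all 18 libraries together. If the nearly alike libraries came from the same sample, this spread would be understated.

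The members and lists were chosen with earlier results of these data known. The annotation used for the lists covers gene models reported as regulated or clustered by expression, in part in these libraries. Lists hold gene models annotated with GH16, with GH5, or with GH3, GH17, GH30, GH55, GH72, GH81, GH128, GH131, GT48 or Kre9/Knh1 in supplementary tables at hand, which were held only in part, so that a gene model without a cluster at hand may still have one. From each list, the 2 called gene models with the highest mean CPM in each direction were named for late against early caps, late against early stipes and late caps against late stipes, together with the 3 gene models most like each member. Gene models 239682, 247183, 305507 and 317105 were named in addition, after their values were seen. No sequence or coordinate was used here.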

Additional observations from a re-analysis of the deposited data

Results flagged for a closer look

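The difference between the late against early change of caps and that of stipes was taken as caps minus stipes on the log2 scale in edgeR. It was tested for the 3 GH16 gene models described in full and for the other gene models named from the lists. It passed both bounds in 9 of them. The GH5 gene models described in full and those named by likeness were not part of this. Of the GH16 gene models described in full, only 245697 was among the 9, at 1.84. Of the other GH16 gene models, 174636 stood at 3.27, with the larger fall in stipes, and 389714 at 1.56, with a fall in stipes and a log2 fold change of 0.15 in caps that did not pass. Gene model 309729, at -2.16, fell in caps, with a log2 fold change of -0.46 in stipes that did not pass. Gene model 692234, at -1.03, rose less in caps than in stipes. The call of 692234 was lost in 10 of the 18 fits that left out 1 library and with the nearly alike libraries summed. The GH5 gene model 387953 stood at 2.79. Of the other glucan gene models, 175190 stood at 1.94, 320159 at 4.40 and 647030 at 5.35, and the call of 175190 was lost without late stipe 2. Of all gene models tested, 14.5% were called for this difference. The other gene models were named for calls in comparisons that share groups with this difference, or after their values were seen. The count of 9 therefore follows in part from that choice and cannot be set against this share.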

How the results depend on the processing

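The calls of 245697 in late against early stipes, late against medium stipes, late caps against late stipes and the difference of the late against early changes were kept in all alternatives run. The causes of the differences below were not tested. Without a minimum fold change, 379212 passed in late against medium stipes (-0.78, edgeR adjusted p = 0.0230). Of the other GH16 gene models, 6 were then higher and 5 lower in late against early caps, 5 higher and 7 lower in late against early stipes, and 5 higher and 6 lower in late caps against late stipes. Of the other GH5 gene models, 2 were lower in late against early caps and 2 higher in late caps against late stipes, and 1 of the further glucan gene models was lower in late caps against late stipes. When the nearly alike libraries were summed, 186533 stood at 0.031 in late against early caps and at 0.078 in late against medium caps, with the sign turned.

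Samples that share a number between cap and stipe or between stages were not treated as pairs. No comparison had a correlation above 0.1 for every pair of the same number. With so few libraries in a group, this check cannot decide whether the samples are paired. With the replicate block, 186533 in medium against early caps stood at 0.020 and 379212 in early caps against early stipes at 0.011, and among the 5 gene models the only call it changed was that of 190947 in early caps against early stipes. That call was lost as well without a filter on low counts and with the nearly alike libraries summed, and summing them also ended its call in medium against early stipes, at a log2 fold change of 1.49. In fits of the compared groups alone, 190947 lost its calls in medium against early stipes and in medium caps against medium stipes, and 292256 its call in medium caps against medium stipes. These fits called 123 gene models in medium against early caps, against 335 with all libraries, 94 in medium against early stipes, against 409, and 478 in medium caps against medium stipes, against 1898. With the nearly alike libraries summed, medium against early stipes gave 169.

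Leaving out 1 library at a time gave the following ranges of log2 fold changes. For 245697 they were -0.64 to 7.26e-05 in medium against early stipes and -0.13 to 0.27 in early caps against early stipes. For 186533 they were -0.27 to 0.072 in late against early caps, -0.22 to 0.37 in late against medium caps, -0.44 to 0.20 in medium against early caps, -0.023 to 0.58 in late against early stipes, -0.21 to 0.26 in late against medium stipes, -0.10 to 0.50 in medium against early stipes and -1.12 to -0.50 in medium caps against medium stipes. For 379212 they were -0.14 to 0.20 in late against early stipes, -1.04 to -0.60 in late against medium stipes, 0.62 to 1.10 in medium against early stipes and -0.22 to 0.12 in early caps against early stipes. For 292256 they were -0.12 to 0.50 in late against early caps and -1.37 to -0.70 in the difference of the late against early changes. Among the other named gene models the sign turned in late against early stipes for 152096 (-0.27 to 0.42) and in late against early caps for 320159 (-0.14 to 0.45). In the difference of the late against early changes it turned for 152096 (-0.33 to 0.37), 382749 (-0.37 to 0.056) and 483631 (-0.19 to 0.076). None of these turned values had passed the test. In late caps against late stipes, 1 to 2 of the other GH16 gene models and 0 to 1 of the further glucan gene models were lower, and in late against early stipes 3 to 5 of the glucan gene models fell.

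Group medians or deposited RPKM values in place of mean CPM changed the order of 0 to 3 of the 15 pairs of groups for each of the 5 gene models. Ranked by Spearman's rho, 0 to 2 of the 3 most alike gene models were shared with those named. The 3 libraries of a group limit what could be detected.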
